A study of Mus musculus with 4 samples.

Results

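The genes described here are those of the proteasome, the protease that degrades most marked proteins in a cell, together with Ubd, a ubiquitin-like modifier that sends proteins to it. Members were taken by name: non-control probes whose gene name in the scanner files begins Psma to Psmg followed by a digit, or is Ubd. The rule found 50 genes with 80 probes, of 27617 genes with 41174 probes on the array. Of these, 49 genes with 73 probes were tested, because a probe had to stand well above background on both arrays of 1 diet or the other, and 7 probes did not. Psmb11, the beta subunit of thymic epithelium, was the member with no tested probe. Psmc3ip shares the name pattern but encodes a recombination protein, which leaves 47 tested proteasome genes beside Ubd.

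White adipose tissue came from female C57BL/6 mice that ate either a high fat diet (HFD) or, for comparison, a low fat diet (LFD) over 18 weeks, starting at 8 weeks of age. RNA was hybridised to 1-colour whole-genome arrays, 2 per diet, with 500 ng of labelled RNA each, all on 1 slide. The sources used here describe every sample as tissue mixed from 3 mice, name no depot, and do not say whether replicates are separate pools. Every p-value below thus reflects only how far these 4 samples spread, and that spread may be technical.

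The 20S core of the proteasome is a barrel of outer alpha rings and inner beta rings, and 3 of the beta subunits, Psmb5, Psmb6 and Psmb7, carry the proteolytic sites. Interferon gamma and tumour necrosis factor make many cells replace these with Psmb8, Psmb9 and Psmb10, giving the immunoproteasome, which supplies peptides for MHC class I and is common in leukocytes. A cap of ATPases and non-ATPase subunits binds ubiquitinated proteins, unfolds them and feeds them into the core, while Psme1 and Psme2 form an activator that opens the core without the cap. Ubd, also called FAT10, is induced by the same cytokines and targets its conjugates to the proteasome without ubiquitin.

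Values are log2 processed signals relative to the 75th percentile of their array, and changes are HFD minus LFD from limma, with an adjusted p under 0.05 as the threshold. The HFD arrays had 27251 and 21312 probes well above background, against 26420 and 27937 on the LFD arrays, and across tested probes log2 signals correlated with r = 0.992 between the HFD arrays and 0.989 between the LFD arrays. All 12 tested adipocyte markers were well above background on all 4 arrays, with summed linear signals, as multiples of the 75th percentile, of 1720 and 1808 in HFD and 1728 and 1864 in LFD. At the threshold 5.75% of all tested genes were higher in HFD and 5.61% were lower. Among markers of other cells, 13 of 17 macrophage markers were higher in HFD, and 9 of 9 mesothelium markers were lower. Among adipocyte markers 1 of 12, Retn, was lower (change -0.90) and 0 were higher. An unadjusted p under 0.05 was reached by 6 of the 12 (50%), against 34.9% of all tested genes. Lep, picked after its values were seen, had a change of 2.18 without overlap between diets (limma adjusted p = 0.0729). Of 8 endothelial markers 0 passed, with Emcn at -0.39 and Kdr at -0.36. A positive change was seen in 5 of the 8, and their median change was 0.077.

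Ubd was far higher in HFD, and 2 of the 47 proteasome genes, Psma8 and Psmd10, were modestly higher. None of the 49 tested members was lower at the threshold. Over all 17736 tested genes, 5.75% were higher and 5.61% were lower. All 3 calls rested on particular settings: with no filter on dim probes none of the 3 passed, nor did any with 1 of the HFD arrays left out. Leaving out LFD replicate 1 or LFD replicate 2 kept the call of Ubd and ended those of Psma8 (adjusted p = 0.0614 and 0.0646) and Psmd10 (adjusted p = 0.103 and 0.0610).

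Ubd had a log2 signal of 5.62 and 5.52 on the HFD arrays, against 0.61 and -0.56 on the LFD arrays. Both HFD arrays lay far above both LFD arrays, and the LFD arrays also differed from each other by more than 1 log2 unit. The change was 5.54 (SE 0.41, limma adjusted p = 0.0147), a 46.6-fold difference with a 95% interval of 21.5 to 101. Its single probe, at chr17:37332688-37332747 in build mm9, was well above background on all 4 arrays. Among the tested genes its change ranked 3 from the top, whereas by p it ranked 183. The adjusted p was 0.107 with no filter on dim probes, 0.0579 without HFD replicate 1 and 0.0662 without HFD replicate 2. In bulk tissue, more cells of a type and more RNA per cell cannot be told apart.

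The Ubd promoter is shown because the modifier carried the largest change among the members and the transcription factor NF-kappaB is a known route of its induction. The 250 bases before the gene start, from RefSeq, lie at chr17:37193642-37193891 on the plus strand of GRCm38.p6, and capitals mark a match to the kappaB consensus that begins 15 bases before the start.
Ubd promoter: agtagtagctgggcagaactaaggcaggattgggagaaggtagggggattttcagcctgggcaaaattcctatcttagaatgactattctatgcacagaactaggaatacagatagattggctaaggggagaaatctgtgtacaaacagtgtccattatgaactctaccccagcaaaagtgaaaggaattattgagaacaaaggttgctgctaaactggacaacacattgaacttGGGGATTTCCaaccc
Matches were sought on both strands in windows of 250 bases before to 50 after each gene start, available for 41 of the 49 tested members. The kappaB consensus was found in 4.51% of all 32851 windows, and among members in Ubd and Psmd12, a cap subunit. Psmd12 had a change of 0.028 (adjusted p = 0.905). A match describes letters only and shows neither a bound site nor a cause.

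Of 19 tested genes in a list of Ubd conjugation and inducing pathways, 2 were higher and 0 lower at the threshold, where 5.75% of all tested genes were higher and 5.61% lower. The median change of the list was 0.34, against 0.021 over all tested genes. Ifngr2, a chain of the interferon gamma receptor, had 2.09 and 2.20 in HFD and 1.25 and 1.31 in LFD (change 0.87, SE 0.10, limma adjusted p = 0.0239). Tnf, the tumour necrosis factor itself, had -2.44 and -2.28 in HFD and -3.48 and -3.86 in LFD (change 1.31, SE 0.17, limma adjusted p = 0.0274). For both genes the diets did not overlap. With either HFD array or LFD replicate 2 left out, or with no filter on dim probes, neither call held, and that of Ifngr2 was also lost without LFD replicate 1. The activating enzyme of Ubd conjugation, Uba6, and its partner Ube2z had changes of -0.12 and 0.20, and Nub1, which speeds the degradation of Ubd, had -0.12, with no call for any of the 3. These 3, and Ifng at 0.14, were picked for their roles after their values were seen.

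The macrophage markers that moved with diet did so in the direction of Ubd. Their summed linear signal was 469 and 482 in HFD and 254 and 227 in LFD, the median change of the 17 was 1.41, and all 17 were well above background on all 4 arrays. Cd68, Trem2, Itgax and Ctss had changes of 2.28, 2.95, 3.04 and 2.07, but with the probes of a gene averaged Itgax had 1.05 and no call (adjusted p = 0.256). The summed mesothelium markers were 13.5 and 10.7 in HFD and 39.2 and 41.1 in LFD, with a median change of -1.82. Changes were -2.72 for Krt18, -1.99 for Krt8, -1.72 for Muc16 and -1.48 for Wt1. With no filter on dim probes none of these named macrophage and mesothelium genes passed (limma adjusted p = 0.107 for each). Among dendritic cell markers 1 of 8 was higher, Batf3 (1.1), where 5.75% of all tested genes were higher. The sums of the 8 were 5.63 and 6.10 in HFD and 4.29 and 3.40 in LFD. Batf3 had the highest signal of the list on all 4 arrays, so it weighs most in these sums. The median change of the 8 was 0.11, and 5 of them had a positive change. The part of these cells in the difference in Ubd was not tested.

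**Figure D1:**
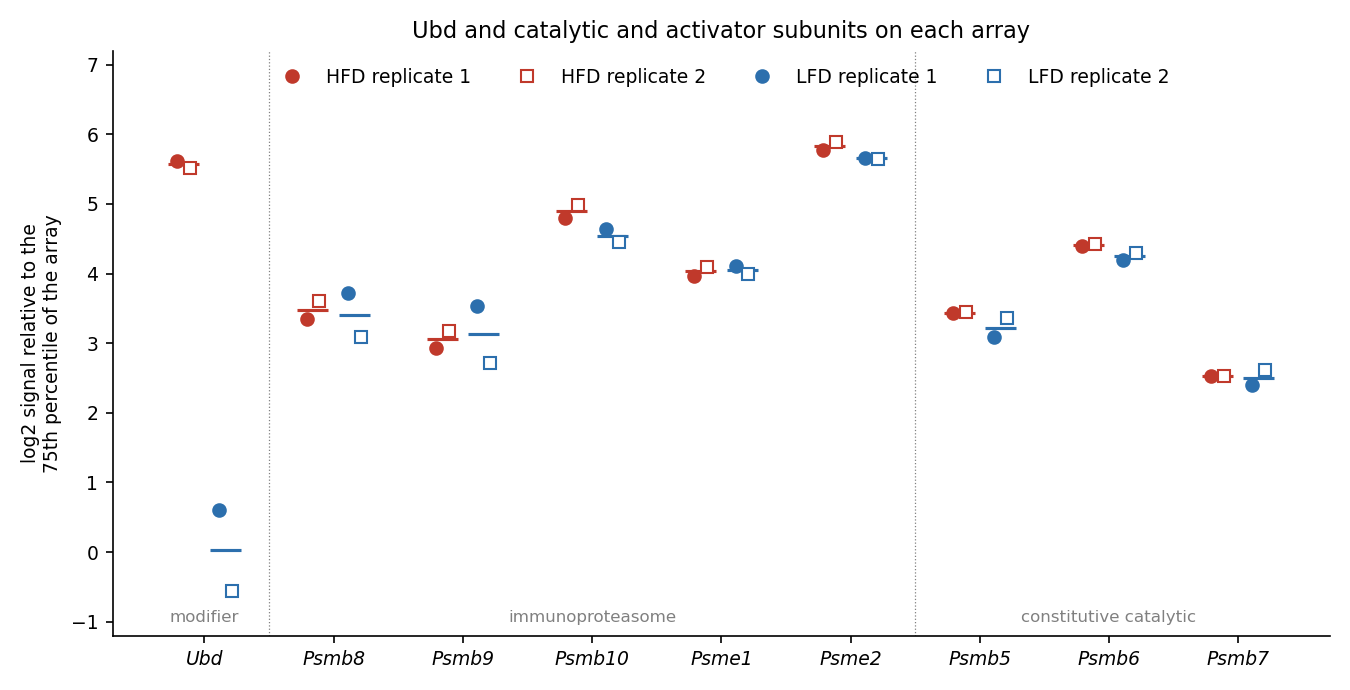
Log2 signal over the 75th percentile of each array (y axis) for Ubd, the 5 immunoproteasome genes and the 3 constitutive catalytic subunits. Red points are HFD arrays, blue points LFD arrays, filled circles replicate 1, open squares replicate 2, and bars the mean of each diet; heights may be compared within a gene but not between probes. Ubd alone separates the diets widely, at 5.62 and 5.52 in HFD and 0.61 and -0.56 in LFD, while the LFD arrays of Psmb8 and Psmb9 lie outside the HFD arrays on both sides.

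None of the 5 immunoproteasome genes passed the threshold, where 5.75% of all tested genes were higher and 5.61% lower. With so few genes no result is read from this count, or from the counts of calls in the other roles below. The median change of the 5 was 0.073, against 0.10 for the 15 genes of the constitutive core, 0.069 for the 17 genes of the cap and 0.021 over all tested genes. These medians rested on single LFD arrays and on the scaling. Without LFD replicate 1 they were 0.34 for the immunoproteasome and -0.013 for the cap, without LFD replicate 2 they were -0.072 and 0.19, and with median scaling -0.014 and -0.019, against 0.014 for the core. One of the 5, Psmb10, had an unadjusted p under 0.05, a level that 34.9% of all tested genes reached.

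Psmb8, the immunoproteasome counterpart of Psmb5, had 3.35 and 3.61 in HFD and 3.72 and 3.09 in LFD. The HFD arrays lay between the LFD arrays. The change was 0.073 (SE 0.25, 95% interval -0.61 to 0.76, limma adjusted p = 0.855), and a second probe gave 0.18 (adjusted p = 0.616).

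Psmb9, the counterpart of Psmb6, had 2.93 and 3.18 in HFD and 3.53 and 2.72 in LFD, again with both HFD arrays inside the range of the LFD arrays. Its change was -0.072 (SE 0.31, 95% interval -0.91 to 0.76, limma adjusted p = 0.884). Psmb10, the counterpart of Psmb7, had 4.80 and 4.99 in HFD and 4.64 and 4.45 in LFD, so the diets did not overlap. Its change of 0.35 did not pass (SE 0.13, 95% interval 0.0046 to 0.70, limma adjusted p = 0.144).

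Neither activator gene passed. Psme1 had 3.97 and 4.10 in HFD and 4.11 and 4.0 in LFD, which overlapped (change -0.019, SE 0.11, limma adjusted p = 0.914). Psme2 had 5.77 and 5.89 in HFD and 5.66 and 5.65 in LFD, which did not overlap (change 0.17, SE 0.10, limma adjusted p = 0.279). A second Psme2 probe gave 0.20 (adjusted p = 0.231). As ratios of HFD to LFD the 95% intervals ran from 0.654 to 1.69 for Psmb8 and from 0.533 to 1.70 for Psmb9. Changes within those ranges are thus compatible with the data for these 2 genes. The intervals are not adjusted for the number of tests and give no limit of detection.

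None of the constitutive catalytic subunits passed either. Psmb5, which carries the chymotrypsin-like site, had 3.43 and 3.45 in HFD and 3.09 and 3.36 in LFD (change 0.22, SE 0.13, limma adjusted p = 0.298). Psmb6, with the caspase-like site, had 4.39 and 4.42 in HFD and 4.20 and 4.30 in LFD (change 0.16, SE 0.10, limma adjusted p = 0.306). Psmb7, with the trypsin-like site, had 2.53 and 2.54 in HFD and 2.40 and 2.61 in LFD (change 0.026, SE 0.12, limma adjusted p = 0.890). Psmb5 and Psmb6 did not overlap between diets, and Psmb7 did.

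Within an array, the difference between an immunoproteasome subunit and the one it replaces has no meaning as a level, but its change between diets can be read. For Psmb8 minus Psmb5 the change was -0.14, from 0.038 ± 0.16 in HFD and 0.18 ± 0.64 in LFD (SD, n = 2 each; exact two-sided permutation p = 1). For Psmb9 minus Psmb6 it was -0.23, from -1.35 ± 0.16 in HFD and -1.12 ± 0.65 in LFD (SD, n = 2 each; exact two-sided permutation p = 1). Without LFD replicate 1 these changes were 0.31 and 0.23, and without LFD replicate 2 they were -0.59 and -0.69, so the sign depended on a single LFD array. For Psmb10 minus Psmb7 it was 0.33, from 2.36 ± 0.13 in HFD and 2.03 ± 0.28 in LFD (SD, n = 2 each; exact two-sided permutation p = 0.333). Without LFD replicate 1 it was 0.53 and without LFD replicate 2 it was 0.13. With 2 arrays per diet 0.333 is the smallest p this test can give.

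The paralogous subunits are measured by separate probes, and 2 pairs of 60-base probes from the array files are shown because the comparison rests on telling these genes apart. Each pair was aligned without gaps at the offset with the highest share of identical bases, and capitals mark bases identical in both.
Psmb8 probe: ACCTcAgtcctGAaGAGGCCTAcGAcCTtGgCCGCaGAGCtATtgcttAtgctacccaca
Psmb5 probe: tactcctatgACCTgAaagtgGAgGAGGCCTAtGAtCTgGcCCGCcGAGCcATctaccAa
Psmb9 probe: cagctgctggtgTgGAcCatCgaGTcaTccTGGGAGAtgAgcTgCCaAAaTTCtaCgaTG
Psmb6 probe: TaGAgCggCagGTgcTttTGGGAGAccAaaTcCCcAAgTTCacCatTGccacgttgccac
The Psmb8 and Psmb5 probes were identical at 31 of 50 aligned bases (62.0%), and the Psmb9 and Psmb6 probes at 27 of 48 (56.2%). In build mm9 the probes lie at chr17:34337771-34337830 (plus strand) for Psmb8, chr14:55233161-55233220 (minus) for Psmb5, chr17:34319174-34319233 (minus) for Psmb9 and chr11:70341014-70341073 (plus) for Psmb6. The Psmb8 probe shown is the dimmer of the gene's 2, the one with a change of 0.18. The difference from Psmb5 above was taken with the brighter probe, identical to the Psmb5 probe at 17 of 38 aligned bases (44.7%).

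The immunoproteasome genes also differed between arrays of the same diet. All 5 were higher on LFD replicate 1 than on LFD replicate 2, narrowly so for Psme2, and higher on HFD replicate 2 than on HFD replicate 1. By contrast, 0 of the 17 cap genes and, in the constitutive core, 1 of 15 (Psma8) were higher on LFD replicate 1, as were 40.4% of all tested genes. Higher on HFD replicate 2 were 12 of the 17 cap genes, 13 of the 15 core genes and 56.3% of all tested genes. Psmb8 and Psmb9 had the arrays in the order LFD replicate 1, HFD replicate 2, HFD replicate 1, LFD replicate 2 from high to low, which 2.04% of all tested genes showed. This order was chosen after the values were seen and is given as a description, without a test.

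Other genes showed the same split between replicates. Of 30 interferon-induced genes, 30 were higher on LFD replicate 1 than on LFD replicate 2, with summed linear signals of 61.9 and 78.4 on the HFD arrays and 98.3 and 67.0 on the LFD arrays. Of 16 tested T and NK cell markers 15 were higher on LFD replicate 1 and 16 on HFD replicate 2, with sums of 11.4 and 14.8 in HFD and 17.4 and 7.96 in LFD. Of 7 tested B cell markers 6 were higher on LFD replicate 1, with sums of 1.76 and 2.47 in HFD and 6.68 and 1.31 in LFD. Cd4, Ncr1, Pax5 and Blk were on the array but were not well above background on both arrays of either diet. Of the macrophage markers 14 of 17 were higher on LFD replicate 1 and 5 on HFD replicate 2. For dendritic cell markers these counts were 7 and 5 of 8, and for MHC class I antigen processing genes 14 and 13 of 17. Higher on LFD replicate 1 were 1 of 12 adipocyte, 4 of 8 endothelial and 3 of 9 mesothelium markers. Over all tested genes 40.4% were higher on LFD replicate 1 and 56.3% on HFD replicate 2. The part of lymphocytes or other cells in the spread of the immunoproteasome genes was not tested.

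**Figure D2:**
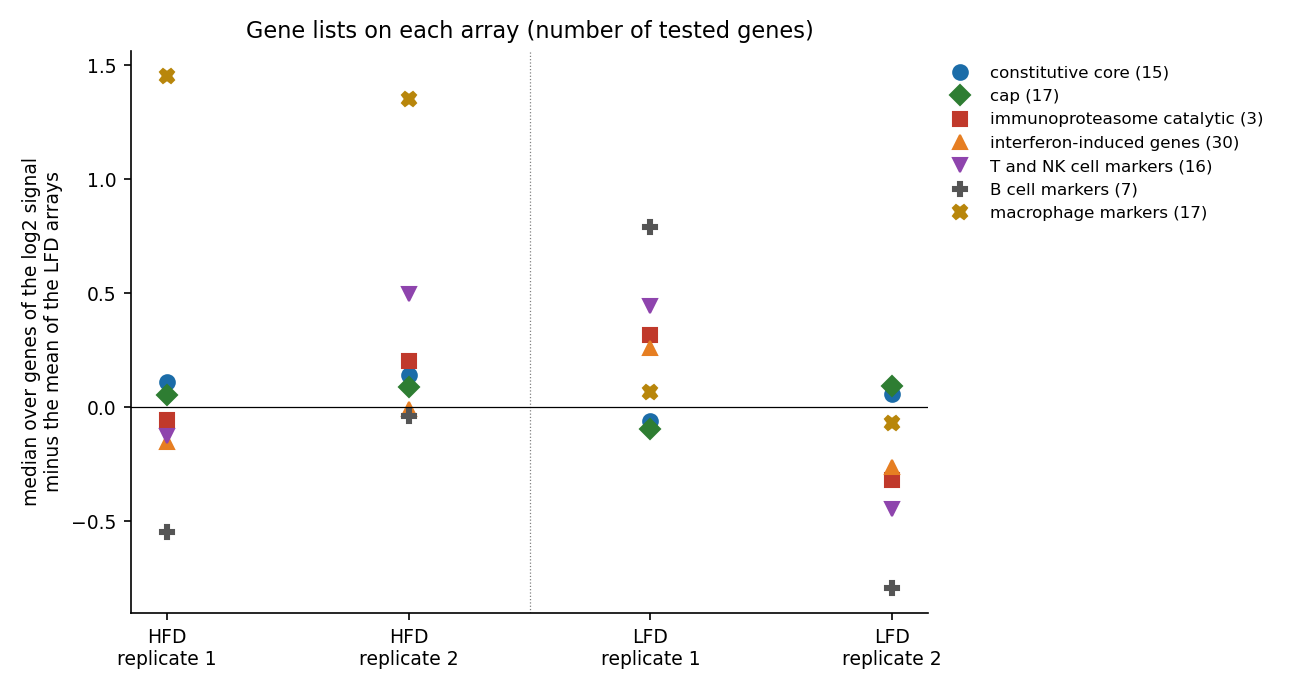
Median over the genes of a list of the log2 signal minus that gene's mean over the LFD arrays (y axis), for each array (x axis, HFD left of LFD); each point is a list and the number of tested genes stands in the legend. By construction the LFD points of a list lie at equal distances above and below 0. The catalytic immunoproteasome genes stand at 0.32 on LFD replicate 1 and -0.32 on LFD replicate 2. The interferon-induced, T and NK cell, B cell and macrophage lists lie on the same sides, the macrophage list at only 0.069 and -0.069. The constitutive core and the cap lie on the opposite sides.

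Between diets few genes of these lists passed, where 5.75% of all tested genes were higher and 5.61% lower. The lists are short, so no result is read from these counts. Of the 30 interferon-induced genes 1 was higher, Irf8 (change 1.08, limma adjusted p = 0.0455), a call that was lost in 8 of 15 alternatives, and their median change was -0.055. Of the 16 T and NK cell markers 1 was higher, Klrb1c (change 0.77), and their median change was 0.19. Of the 7 B cell markers 0 passed, with Ms4a1 at -1.46, and their median change was -0.30. Of 17 genes of MHC class I antigen processing 0 passed, with a median of 0.17. With 1 array left out the median ran from -0.30 to 0.094 for the interferon-induced genes, from -0.20 to 0.74 for the T and NK cell markers, from -1.01 to 0.40 for the B cell markers and from 0.066 to 0.24 for the class I genes. The largest changes among the class I genes were -0.42 for Erap1, a peptide-trimming enzyme, and 0.41 for Nlrc5, the class I transactivator.

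Tap1, a chain of the peptide transporter of the class I pathway, shares its promoter region with Psmb9, and was picked after its values were seen. It had -0.52 and -0.23 in HFD and -0.16 and -0.77 in LFD, the same order of arrays as Psmb9 (change 0.092, limma adjusted p = 0.813). The upstream sequences of Psmb9 and Psmb8 are shown because these genes varied together across arrays. They are the 250 bases before each gene start from RefSeq, in GRCm38.p6, at chr17:34187331-34187580 on the minus strand for Psmb9 and chr17:34197945-34198194 on the plus strand for Psmb8. Capitals mark, in Psmb9, the 25 bases that lie within Tap1, which is read the other way from a start 226 bases off, and in Psmb8 a match to the interferon gamma activated site TTCNNNGAA.
Psmb9 upstream: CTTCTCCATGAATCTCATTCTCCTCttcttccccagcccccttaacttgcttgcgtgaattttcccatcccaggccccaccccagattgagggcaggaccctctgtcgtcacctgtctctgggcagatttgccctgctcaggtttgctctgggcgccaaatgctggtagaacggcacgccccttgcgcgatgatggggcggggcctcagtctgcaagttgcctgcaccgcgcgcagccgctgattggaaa
Psmb8 upstream: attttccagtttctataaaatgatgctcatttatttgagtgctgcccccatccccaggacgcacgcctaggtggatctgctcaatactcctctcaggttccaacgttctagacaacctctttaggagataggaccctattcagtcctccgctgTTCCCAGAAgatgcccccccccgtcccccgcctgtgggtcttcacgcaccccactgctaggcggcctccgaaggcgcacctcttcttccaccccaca
The TTCNNNGAA match of Psmb8 begins 97 bases before its start. This motif was found in 8.3% of all windows, and among the members also in Psmd2 and Psmg1. The core of the interferon-stimulated response element, which is GAAA, then any 2 bases, then GAAA, was found in 3.44% of all windows and in those of Psme1, Psmb3, Psmd4, Psmd9 and Psmg4. The antioxidant response element core TGACNNNGC, found in 12.4%, was present in those of Psmb5, Psmb6, Psmc6, Psmd12, Psmd9 and Psme4.

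The structural rings of the core held 1 call, Psma8. The 8 alpha ring genes had changes of 0.037 to 0.87 with a median of 0.12, and the 7 constitutive beta ring genes had changes of -0.018 to 0.22 with a median of 0.063. Psma8, an alpha subunit known from the proteasomes of male germ cells, had -1.51 and -1.66 in HFD and -2.34 and -2.58 in LFD. Both HFD arrays lay above both LFD arrays, and the probe was well above background on all 4. The change was 0.87 (SE 0.13, limma adjusted p = 0.0352), or 1.83-fold, but with scaling to the array median the adjusted p was 0.0516. Without Psma8 the other 14 core genes had a median change of 0.090 and no call, and 6 of the 14 did not overlap between diets, against 68.9% of all tested genes.

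The 17 genes of the cap showed no call, where 5.75% of all tested genes were higher and 5.61% lower. Its 6 ATPases, the unfolding motor, had changes of -0.15 to 0.28 with a median of 0.086, and its 11 non-ATPase subunits, which recognise and deubiquitinate substrates, had changes of -0.11 to 0.27 with a median of 0.069. Psmc4, an ATPase and the cap gene of largest change, had 3.36 and 3.41 in HFD and 2.98 and 3.22 in LFD (change 0.28, SE 0.12, limma adjusted p = 0.189). Psmd8, a subunit of the lid, had 2.55 and 2.64 in HFD and 2.25 and 2.39 in LFD (change 0.27, SE 0.11, limma adjusted p = 0.161). Neither gene overlapped between diets. All 17 cap genes were lower on LFD replicate 1 than on LFD replicate 2, so that without LFD replicate 2 their median change was 0.19.

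Among the chaperones that assemble the cap, Psmd10, also called gankyrin, was higher in HFD. It had 1.01 and 1.02 in HFD and 0.37 and 0.52 in LFD, with no overlap (change 0.57, SE 0.10, limma adjusted p = 0.0460, 1.48-fold). The other cap chaperones, Psmd9 and Psmd5, had changes of 0.36 (adjusted p = 0.119) and -0.26 (adjusted p = 0.180), and that of Psmd5 was the most negative among the 47 proteasome genes. The 4 chaperones of the core, Psmg1 to Psmg4, ranged from -0.094 to 0.076. Psmg1, the one of largest change, had 0.85 and 0.84 in HFD and 0.87 and 1.0 in LFD (change -0.094, SE 0.10, limma adjusted p = 0.541).

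Of the remaining activators and the inhibitor none passed. Psme4, an activator that binds the end of the core in place of the cap, had 4.75 and 4.64 in HFD and 4.21 and 4.41 in LFD, without overlap (change 0.38, SE 0.12, limma adjusted p = 0.113), and passed only with the trend and robust options of eBayes (adjusted p = 0.0494). Psme3, the nuclear activator, had a change of 0.11 (adjusted p = 0.727). Psmf1, an inhibitor of the isolated core, had a change of 0.26 on its brightest probe (adjusted p = 0.157) and of 0.10 on a second (adjusted p = 0.542). The remaining and dim Psmf1 probe had -4.58 and -4.89 in HFD, where it was not well above background, and -3.84 and -3.65 in LFD (change -0.99, limma adjusted p = 0.0357). Since the HFD values are only a bound, LFD was at least 1.03-fold higher on that probe, and with normexp background correction its change was -0.13 (adjusted p = 0.504).

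**Figure D3:**
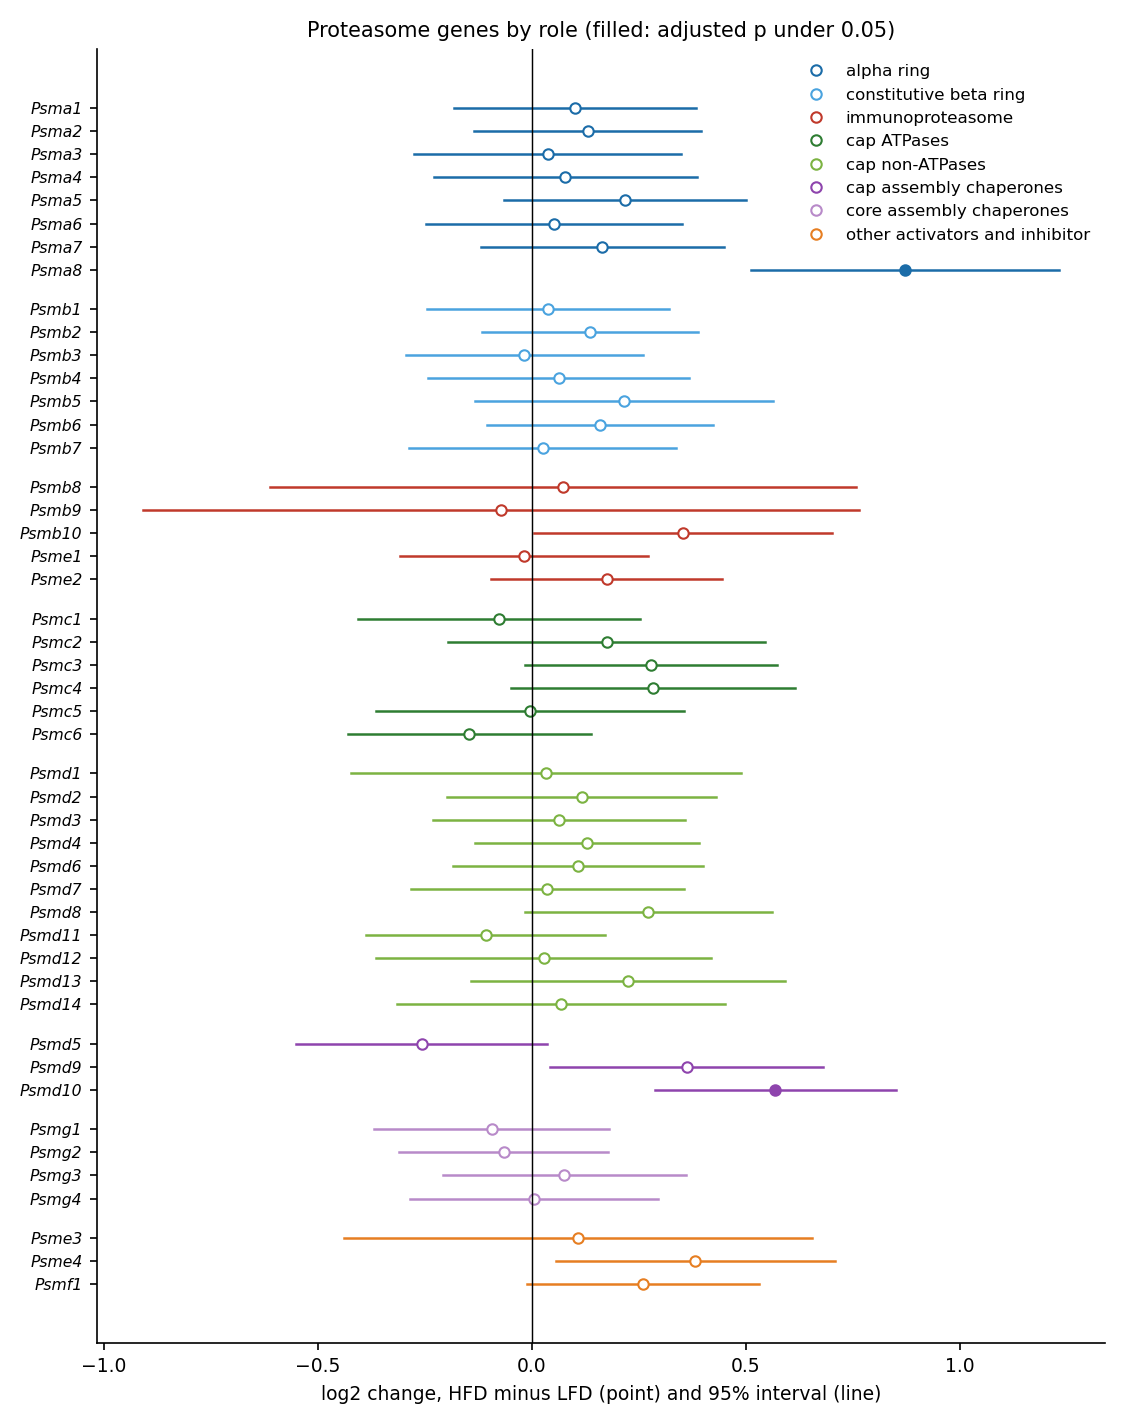
Log2 change, HFD minus LFD (x axis), of the 47 tested proteasome genes (rows), grouped and coloured by role; points are changes, lines 95% intervals, and filled points have an adjusted p under 0.05. Psma8 at 0.87 and Psmd10 at 0.57 are the filled points, and Psmb8 and Psmb9 have the widest intervals.

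The changes of the proteasome genes were mostly small. The changes of the 47 lay between -0.26 and 0.87, and none reached 2-fold, whereas 7.83% of all tested genes did. Including Ubd and Psmc3ip, the median size of change regardless of direction was 0.11, against 0.27 over all tested genes, and 27 of 49 members (55.1%) had diets that did not overlap, against 68.9%. Of the 49, 6 (12.2%) had an unadjusted p under 0.05, against 34.9%. All 49 were well above background on all 4 arrays, as were 14781 of the 17736 tested genes, and the comparison was not matched for signal. These values describe the list, and no test was made of it.

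The direction of the small changes depended on the scaling of the arrays. With the 75th percentile, 37 of 47 proteasome genes had a positive change, against 52.2% of all tested genes, but with scaling to the array median 23 of 47 had one, against 43.3%. The median change of the 47 was 0.078 with the 75th percentile and -0.0099 with the array median, and the median of all tested genes was 0.021 and -0.067.

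**Figure D4:**
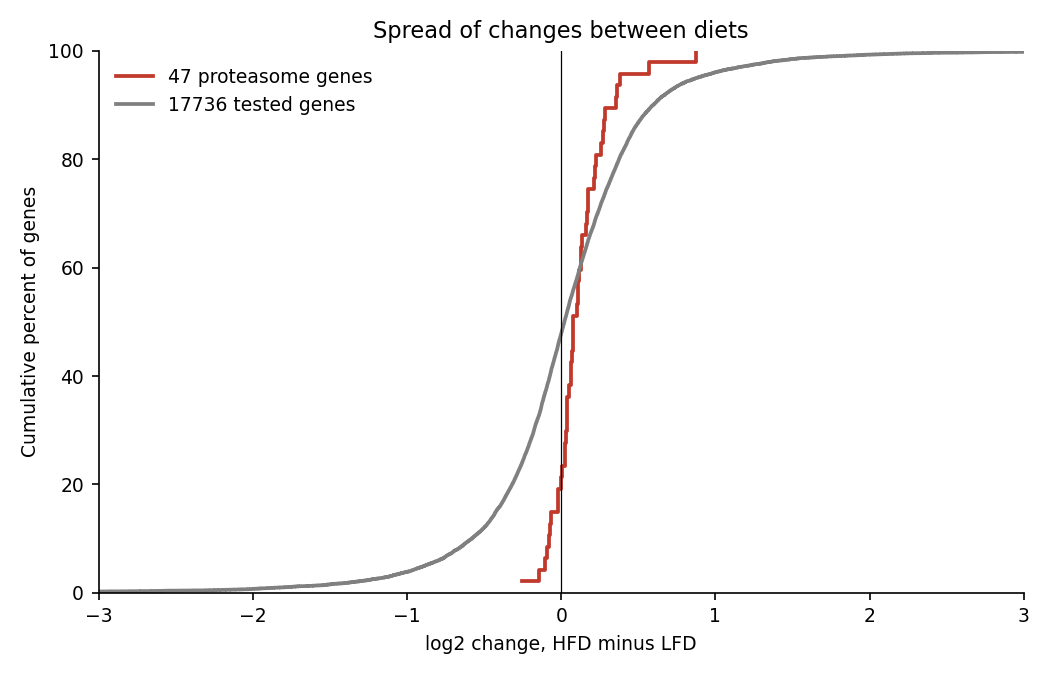
Cumulative percent of genes (y axis) against log2 change, HFD minus LFD (x axis, shown from -3 to 3), for the 47 tested proteasome genes (red) and all 17736 tested genes (grey). The red curve rises within -0.26 to 0.87. A full span widens with the number of genes, so the spans of the curves are not compared.

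The genes that work with the proteasome gave no call. Of 26 tested names in a list of ubiquitin genes, shuttle factors, deubiquitinases and transcriptional regulators, 0 passed in either direction, 1 had an unadjusted p under 0.05, and the median change was 0.065. Over all tested genes 5.75% were higher, 5.61% were lower and 34.9% had an unadjusted p under 0.05, with a median change of 0.021. One gene stands in that list under a current and an older name, Ecpas and AI314180. Zfand2a, a stress-induced factor that associates with the proteasome, and Ubqln1, a ubiquitin shuttle, had the largest changes, 0.47 (adjusted p = 0.181) and 0.42 (adjusted p = 0.197). The subunits outside the name rule, Sem1 and Adrm1, had 0.17 and 0.029, and the core maturation factor Pomp had 0.26. These 3 were picked for their roles after their values were seen, and none passed.

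Probes of a gene were not always alike. Several tested probes stood for each of 20 member genes, and in 9 of these genes the probes disagreed in sign; in Psmf1, 1 of the 9, a probe also differed in its call. For Psma7 a dim probe gave -1.1 (adjusted p = 0.0686) beside 0.17 on the brightest, and for Psmc2 a dim probe gave -0.62 (adjusted p = 0.241) beside 0.18. In both genes the dim probe was well above background on only 1 of the 2 HFD arrays.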

How the data were processed

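Log2 signals came from 4 one-colour arrays of adipose tissue RNA, 2 per diet, on 1 slide and in 1 scan. The authors deposited the scanner output, in which each spot has a linear intensity, background-subtracted and detrended within the array per the file headers. Feature Extraction was version 11.0.1.1 per the file headers, and 11.5.1.1 per the submitters' processing notes. Dividing the scanner signals by the deposited values showed these to be, spot by spot, a ratio of signal to the 75th percentile of the array. These values have medians of 0.130 and 0.131 in HFD and 0.117 and 0.127 in LFD, and are linear and uncentred.

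Spots marked as outliers (60 to 115 per array) and controls were left out, spots of a probe were averaged, and the log2 processed signal was taken relative to the 75th percentile of its array. The 26054 probes that both arrays of either diet showed well above background were tested with limma 3.58.1 in R 4.3.3 (data.table version 1.17.8), lmFit and eBayes, two-sided, with Benjamini-Hochberg adjustment over all of them. A gene was its tested probe of highest mean signal. Residual degrees of freedom were 2, and the prior's 2.24. The procedure was also run on simulated data with independent normal noise, its variances drawn from the fitted prior. Such data follow the assumptions of the model, so they cannot show whether these hold for these arrays. The number of arrays limits the precision. Same-numbered arrays did not deviate together (correlation of deviations -0.005), so the numbers were not used as pairs.

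Members and lists were chosen with earlier results of these data known. Genes named with values were Ubd, the immunoproteasome and constitutive catalytic genes, every member past the threshold, the member of largest change in each role and, in each other list, up to 4 genes past the threshold or the 2 of largest change; 1 gene that this rule names is not reported here. Others are said to be picked after their values were seen, or complete a small role or concern probe disagreement. Accessions matched 27668 probes to RefSeq, and for 1843 of them the RefSeq symbol differed from the name in the files. Matched probes took the RefSeq symbol, except that members kept the name in the files. Promoter windows are RefSeq's on GRCm38.p6 and probe coordinates the files' on mm9, and the builds were kept apart. Alternatives were normexp (offset 50), quantile and median scaling, the deposited table, other filters, outlier spots left in, averaging of the probes of a gene, trend and robust options, a replicate block, each array left out (with the tested probes kept) and a threshold of 0.10.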

Additional observations from a re-analysis of the deposited data

How the results depend on the processing

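With 2 arrays per diet and 2 residual degrees of freedom, calls changed readily. Against 1019 genes higher and 995 lower, normexp gave 1618 higher, the filter requiring all 4 arrays 1599 higher, the trend and robust options 1826 and 1808, a threshold of 0.10 gave 2260 and 2188, and no filter on dim probes gave 0 and 0 in limma (5608 genes with an unadjusted p under 0.05). With median scaling 852 were higher and 1334 lower, so 39.0% of calls were higher, against 50.6%. The replicate block gave 220 and 208, and leaving out each array gave 9 to 470 and 9 to 341. Members higher numbered 3; there were 4 with the trend and robust options, 2 with median scaling, 0 with no filter, 1 with the replicate block (Ubd, adjusted p = 0.0461) and 0 to 1 with an array left out. Members lower numbered 0 in all settings. The Ubd change stayed positive in all 15 alternatives (4.96 to 6.13), but missed the threshold with no filter (5.54, adjusted p = 0.107), and its change with an array left out was 4.96 to 6.13, missing without either HFD array. The core median was 0.014 with median scaling and 0.044 to 0.16 with an array left out, the immunoproteasome median -0.072 to 0.34 (highest without LFD replicate 1) and the cap median -0.013 to 0.19 (highest without LFD replicate 2). Signs turned, with no call in either setting, for Psmb7 (-0.041 with quantile normalization, -0.062 with median scaling, -0.079 to 0.13 with an array left out), Psmb8 (-0.014 with median scaling, -0.24 to 0.39 with an array left out), Psmb9 (-0.48 to 0.34), Psme1 (-0.084 to 0.046) and Ms4a1 (-3.06 to 0.14), the last 3 with an array left out. The calls of Irf8 missed the threshold in 8 of 15 alternatives, of Psma8 in 7, of Psmd10, Ifngr2, Klrb1c, Batf3 and Retn in 6, of Tnf in 5 and of Itgax in 4. Those of Cd68, Trem2, Ctss, Krt18, Krt8, Muc16 and Wt1 missed it in 3. None of these genes had a turn of sign. The cause was not tested. No slide block could be fitted, since there was 1 slide.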
